A study of Mus musculus with 8 samples.

Results

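The adult globin genes Hba-a1, Hba-a2, Hbb-bs and Hbb-bt and the erythroid heme synthesis gene Alas2 were followed in RNA from the distal colon of 8 mouse libraries, as a measure of the blood that the tissue held. They are 5 of the 16130 genes in the count table, and each was found by its gene symbol. The 5 genes were selected on these same counts, because they stood lower in EE libraries, so their EE and NE values are given as a description, with no test. All 5 passed the filter on low counts, which left 14311 genes. EE libraries (n = 4) came from animals kept in enriched housing for 4 months, and NE libraries (n = 4) from animals kept in conventional, non-enriched housing for the same time. Both groups had the genotype Tcf4Het/+ ApcMin/+, so every animal carried the truncating Apc allele that gives intestinal adenomas together with a heterozygous Tcf4 allele. The labels state no age, sex or strain, and do not say whether a library came from 1 animal or whether adenomas were in the piece of colon taken. P-values therefore measure only the spread between these samples, which may be technical.

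Hemoglobin carries oxygen in red blood cells and is built of alpha chains, from Hba-a1 and Hba-a2, and beta chains, from Hbb-bs and Hbb-bt, each holding a heme. Alas2 encodes the erythroid form of 5-aminolevulinate synthase, the first and rate-limiting enzyme of heme synthesis, while Alas1 encodes the form used by other cells. Mature mammalian red cells have no nucleus and make no new RNA, and the globin RNA of blood is carried mainly by young red cells, the reticulocytes, that left the bone marrow a short time before.

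The sequences show what the 5 genes share and how far a read can tell them apart. The alpha genes lie on chromosome 11 (Hba-a1 from 32283511 to 32284465 and Hba-a2 from 32296489 to 32297298, plus strand, GRCm38, GENCODE M21), the beta genes on chromosome 7 (Hbb-bs from 103826534 to 103828096 and Hbb-bt from 103812524 to 103813996, minus strand), and Alas2 on chromosome X (150547375 to 150570638, plus strand). Each globin gene has 3 exons and Alas2 has 11. The coding sequences of Hba-a1 and Hba-a2 differed at 1 of 429 bases, at coding base 381, and those of Hbb-bs and Hbb-bt at 1 of 444 bases, at coding base 417. The 61 coding bases around each difference are shown because they are the only place where a read within the coding part separates the copies, with the differing base in capitals.
Hba-a1: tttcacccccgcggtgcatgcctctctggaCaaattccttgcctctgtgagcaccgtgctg
Hba-a2: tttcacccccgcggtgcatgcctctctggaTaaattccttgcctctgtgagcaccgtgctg
Hbb-bs: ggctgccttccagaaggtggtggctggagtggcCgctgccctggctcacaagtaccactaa
Hbb-bt: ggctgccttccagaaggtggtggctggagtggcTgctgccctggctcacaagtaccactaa

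Many reads of 50 bases could not be placed on 1 copy. The first-numbered GENCODE transcript of each gene was compared with all transcripts. Of the 50-base windows of Hba-a1 (699 bases) 67.5% occur without a mismatch in Hba-a2, and of those of Hba-a2 (554 bases) 86.9% occur in Hba-a1. The transcript of Hba-a1 has 196 bases before its coding part and that of Hba-a2 has 35. The added bases of Hba-a1 also lie before Hba-a2 in the genome, so there more than 67.5% of the Hba-a1 windows fit both genes. Of the windows of Hbb-bs (628 bases) 65.8% occur in Hbb-bt, and of those of Hbb-bt (703 bases) 58.3% occur in Hbb-bs. Alas2 (2037 bases) shares 0 of its 1988 windows with another gene. The sources used here do not give how reads that match both copies were counted, so the split within each pair of globins is uncertain, and the sums over a pair depend on it too if such reads were dropped or counted for each copy.

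The 250 bases before the RefSeq start of each gene (GRCm38.p6) are shown because the 5 genes were all lower in EE libraries, with 4 short motifs of promoters in capitals. The motifs were GATAA, the core bound by GATA factors such as the erythroid GATA1, CACCC, the core bound by Klf factors such as the erythroid KLF1, CCAAT, and TATAA of the TATA box. Each was searched on both strands, so a capital run can also hold the reverse of the motif, and runs can overlap.
Hba-a1 (chr11:32283422-32283671, plus strand): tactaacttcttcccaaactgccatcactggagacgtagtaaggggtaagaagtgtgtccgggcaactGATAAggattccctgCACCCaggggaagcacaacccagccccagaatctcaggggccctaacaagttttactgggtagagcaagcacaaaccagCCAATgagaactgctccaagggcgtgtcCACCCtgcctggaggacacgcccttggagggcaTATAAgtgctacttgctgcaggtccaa
Hba-a2 (chr11:32296242-32296491, plus strand): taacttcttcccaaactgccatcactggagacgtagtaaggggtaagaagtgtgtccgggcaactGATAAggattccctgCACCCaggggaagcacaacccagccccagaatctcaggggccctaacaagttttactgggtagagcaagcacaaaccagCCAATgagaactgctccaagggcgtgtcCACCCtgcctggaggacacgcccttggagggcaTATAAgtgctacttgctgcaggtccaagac
Hbb-bs (chr7:103827929-103828178, minus strand): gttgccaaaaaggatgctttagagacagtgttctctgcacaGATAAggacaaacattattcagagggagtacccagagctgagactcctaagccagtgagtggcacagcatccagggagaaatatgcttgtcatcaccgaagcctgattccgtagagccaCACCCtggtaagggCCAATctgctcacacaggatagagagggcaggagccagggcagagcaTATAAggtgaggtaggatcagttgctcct
Hbb-bt (chr7:103813924-103814173, minus strand): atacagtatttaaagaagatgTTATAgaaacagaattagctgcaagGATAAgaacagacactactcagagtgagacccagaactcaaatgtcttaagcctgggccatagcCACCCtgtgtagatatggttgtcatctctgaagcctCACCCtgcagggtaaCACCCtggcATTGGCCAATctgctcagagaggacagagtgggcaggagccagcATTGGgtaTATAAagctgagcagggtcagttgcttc
Alas2 (chrX:150547167-150547416, plus strand): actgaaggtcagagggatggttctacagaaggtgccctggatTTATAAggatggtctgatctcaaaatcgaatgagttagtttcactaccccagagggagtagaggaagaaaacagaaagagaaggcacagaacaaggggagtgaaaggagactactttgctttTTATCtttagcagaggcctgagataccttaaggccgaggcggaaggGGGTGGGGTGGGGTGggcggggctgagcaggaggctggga

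The windows of the 4 globin genes each held all 4 motifs, which 0.969% of 32817 such windows of RefSeq promoters did. The Alas2 window held 3 of the motifs and had no CCAAT match. The motif GATAA was in 22.6% of all windows, CACCC in 52%, CCAAT in 33.8% and TATAA in 22.8%. In the globin windows TATAA began 27, 30, 29 and 28 bases before the start in Hba-a1, Hba-a2, Hbb-bs and Hbb-bt. The windows of the alpha genes share an identical run of 247 bases, whereas the longest identical run between the beta genes is 14 bases. GENCODE begins at least 1 transcript of each of the 5 genes farther upstream than RefSeq, inside these windows. The motifs are a match of letters and show neither binding nor use.

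Counts summed to 4735764 to 6266902 in EE libraries and 6120185 to 10586851 in NE libraries. Levels are given as CPM, counts per 1000000 after scaling of library size. EE 4 stood apart on the first principal component of the 500 most variable genes (−46.3, against −6.36 to 10.4 in the other EE libraries and 7.56 to 14.2 in NE libraries), and it had the lowest endothelial, pericyte, smooth muscle and lymphocyte levels of all 8. All 10 epithelial genes were in the table, with summed levels of 7954 to 12074 CPM in EE libraries and 9177 to 12314 CPM in NE libraries. They do not single out the distal colon, so that label was not checked. The fold changes of the authors' deposited table are positive where the NE columns are higher, and 97.8% of tested genes had a sign there opposite to that of the EE over NE fold change used here. Whether that table is NE over EE or its column names are exchanged cannot be told apart, so EE and NE stand for the column names.

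The alpha globin genes were lower in every EE library than in any NE library. Levels of Hba-a1 were 55.0, 46.5, 22.2 and 28.4 CPM in EE 1 to EE 4, against 93.5, 67.5, 88.9 and 61.5 CPM in NE 1 to NE 4. These values rest on 147 to 259 counts in EE libraries and 371 to 947 counts in NE libraries. EE 3 and EE 4 were the lowest and EE 1 came nearest to the NE range. The log2 fold change of Hba-a1, EE over NE, was −1.04 with a standard error of 0.27.

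Hba-a2 followed the same order of libraries within EE. Its levels were 29.1, 25.3, 12.7 and 16.3 CPM in EE 1 to EE 4, against 51.9, 40.7, 47.1 and 30.3 CPM in NE 1 to NE 4, with a log2 fold change of −1.04 (standard error 0.26). EE 1 lay just below NE 4. Hba-a1 and Hba-a2 together came to 58.9 ± 22.9 CPM in EE libraries and 120 ± 24.7 CPM in NE libraries (SD, n = 4 each).

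The beta globin genes were lower too, but Hbb-bs did so in another pattern. Hbb-bs, the most abundant of the 5, had 374, 407, 404 and 408 CPM in EE 1 to EE 4, against 882, 480, 827 and 524 CPM in NE 1 to NE 4. The 4 EE values were close to each other, at 398 ± 16.1 CPM, while the NE values spread over 678 ± 205 CPM (SD, n = 4 each), with NE 1 and NE 3 high and NE 2 and NE 4 lower. The log2 fold change was −0.77 (standard error 0.20).

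For Hbb-bt the levels were 81.7, 87.7, 49.7 and 54.9 CPM in EE 1 to EE 4, against 159, 97.2, 139 and 136 CPM in NE 1 to NE 4. Here EE 3 and EE 4 were again lower than EE 1 and EE 2, as for the alpha genes, and the groups did not overlap. The log2 fold change was −0.96 (standard error 0.21). Beta globin counts summed over both copies came to 456, 494, 454 and 462 CPM in EE 1 to EE 4, against 1040, 577, 965 and 660 CPM in NE 1 to NE 4.

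**Figure D1:**
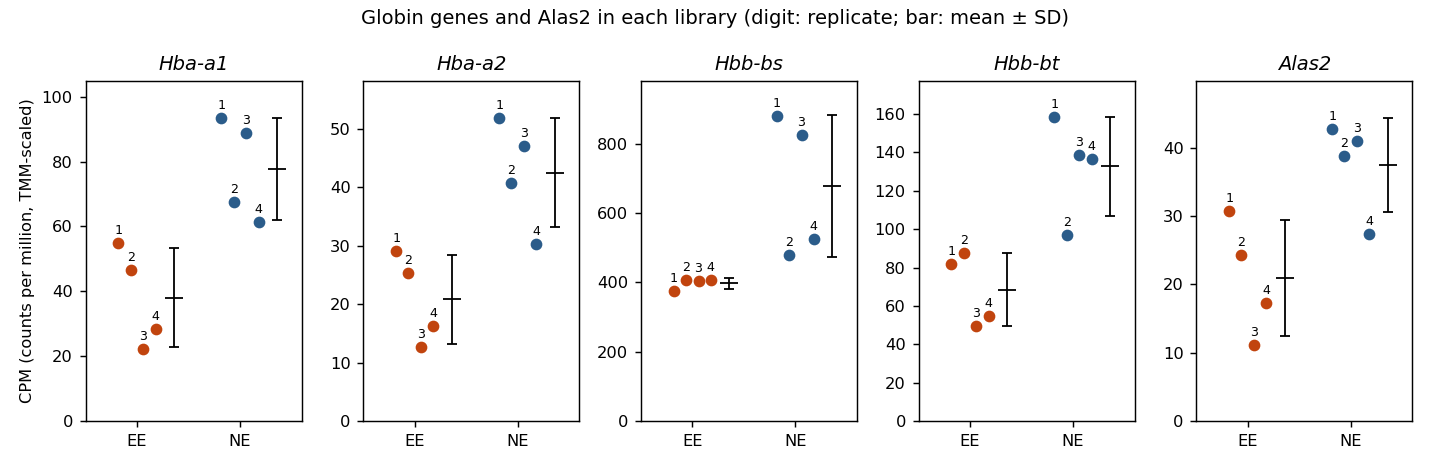
CPM of Hba-a1, Hba-a2, Hbb-bs, Hbb-bt and Alas2 in each of the 4 EE and 4 NE libraries, with the replicate number at each point and the mean ± SD beside each group; each axis starts at 0. The EE points lie below all NE points except for Alas2, where EE 1 (30.8 CPM) is above NE 4 (27.3 CPM), and the EE points of Hbb-bs lie within 374 to 408 CPM.

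Alas2 was lower in EE libraries on average, and its groups overlapped. Its levels were 30.8, 24.3, 11.2 and 17.3 CPM in EE 1 to EE 4, against 42.8, 38.8, 41.0 and 27.3 CPM in NE 1 to NE 4, resting on 74 to 145 counts in EE libraries and 165 to 437 counts in NE libraries. EE 1 lay above NE 4, and EE 2 to EE 4 lay below every NE library. The log2 fold change was −0.86 (standard error 0.28). The ubiquitous enzyme gene Alas1 did not share this pattern, at 178, 167, 130 and 155 CPM in EE 1 to EE 4 and 161, 140, 156 and 140 CPM in NE 1 to NE 4. For each 100 counts of Alas1 there were 8.57 to 17.3 counts of Alas2 in EE libraries and 19.5 to 27.7 in NE libraries.

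The members' log2 fold changes had a median of −0.96, against 0.00 over all genes tested. All 4 EE values lay below all 4 NE values in 4 of the 5 genes, against 2.02% of all genes tested (289 of 14311), with 2.87% the other way round (411 of 14311). This is how the 5 genes were chosen, and nothing follows from the count. Over all genes edgeR's quasi-likelihood test called 0% (0 of 14311 genes at a Benjamini-Hochberg adjusted p under 0.05). At an unadjusted p under 0.05 it gave 1357 genes (9.48%), and DESeq2 called 14 genes (0.0978%) and limma-voom 0. The authors' deposited table gives log2 fold changes of 0.96 for Hba-a1, 0.86 for Hba-a2, 0.70 for Hbb-bs, 0.90 for Hbb-bt and 0.72 for Alas2, positive because NE columns are higher. Counted without EE 4, which stood apart, the same 4 genes did not overlap, against 2.78% of all genes, and the median log2 fold change was −0.86. In such bulk RNA, fewer red cells and less RNA per red cell cannot be told apart.

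The 4 globin genes together took 0.0516 to 0.0545% of all counts in EE libraries and 0.0675 to 0.114% in NE libraries. As CPM the sum was 540, 566, 489 and 507 in EE 1 to EE 4, against 1186, 686, 1101 and 752 in NE 1 to NE 4. The EE libraries were within a factor of 1.16 of each other and the NE libraries within a factor of 1.73. NE 2 and NE 4 were therefore nearer to the EE range than to NE 1, and the size of the difference between the groups depends on NE 1 and NE 3. The mean log2 difference of the sum, EE minus NE, was −0.79, and it was −0.66 without NE 1 and −0.69 without NE 3.

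Between genes, levels were compared per length of transcript. Per kilobase of the first-numbered transcript, mean levels in EE libraries were 634 CPM for Hbb-bs, 97.4 for Hbb-bt, 54.4 for Hba-a1, 37.6 for Hba-a2 and 10.3 for Alas2. In NE libraries they were 1080 CPM for Hbb-bs, 189 for Hbb-bt, 111 for Hba-a1, 76.8 for Hba-a2 and 18.4 for Alas2. Hbb-bs lay above Hbb-bt, and Alas2 below the globins, in each library. Per 1000 windows of 50 bases found in no transcript of another gene, the EE means were 2010 CPM for Hbb-bs, 316 for Hba-a2, 251 for Hbb-bt, 180 for Hba-a1 and 10.5 for Alas2. The NE means on this scale were 3425 CPM for Hbb-bs, 644 for Hba-a2, 486 for Hbb-bt, 369 for Hba-a1 and 18.9 for Alas2. Windows of Hba-a1 that also lie before Hba-a2 in the genome count here as its own. The level of Hba-a1 on this scale may therefore be too low. The highest and the lowest gene are the same on both scales, but the places of Hbb-bt and the alpha genes between them are not. The order among these 3 genes is uncertain, as it depends on the transcript taken and on how shared reads were counted.

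The ratios between the genes describe how far they varied together. Hba-a1 over Hba-a2 in counts was 1.89, 1.84, 1.75 and 1.74 in EE 1 to EE 4, against 1.80, 1.66, 1.89 and 2.03 in NE 1 to NE 4. Each of these lay inside the counting interval of most other libraries, and the groups overlapped. Most windows of the alpha genes occur in both copies, and the part of read counting in this steady ratio was not tested. Alas2 per 100 counts of alpha globin was 36.6, 33.9, 32 and 38.7 in EE 1 to EE 4, against 29.4, 35.9, 30.2 and 29.8 in NE 1 to NE 4. The ratio of Alas2 to alpha globin thus varied by a factor of 1.21 among EE libraries, while the levels of these genes varied there by a factor of 2 or more.

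**Figure D2:**
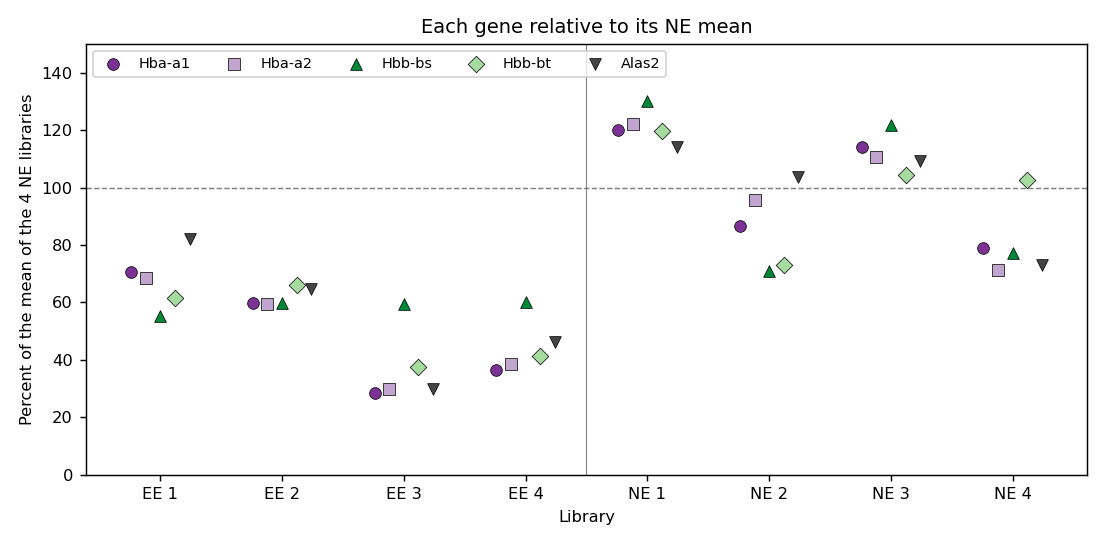
Level of each of the 5 genes in each library as a percent of its mean over the 4 NE libraries (dashed line at 100), with EE libraries on the left and NE libraries on the right. In EE 3 and EE 4 Hbb-bs is at 59.6% and 60.1% while the other 4 genes are at 28.5% to 46.1%; in EE 1 and EE 2 the 5 genes are at 55.1% to 82.1%.

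The beta genes did not keep so steady a ratio. Hbb-bs over Hbb-bt was 4.57, 4.64, 8.13 and 7.43 in EE 1 to EE 4, against 5.56, 4.94, 5.96 and 3.84 in NE 1 to NE 4. EE 3 and EE 4 lay above all other libraries and NE 4 below them. Of the beta globin counts, Hbb-bs took 89.0% in EE 3 (95% Clopper-Pearson interval 87.9 to 90.1), 88.1% in EE 4 (86.9 to 89.3), 82.1% in EE 1 (80.4 to 83.7) and 82.3% in EE 2 (80.7 to 83.7), against 84.7% (83.9 to 85.6), 83.2% (82.0 to 84.3), 85.6% (84.9 to 86.3) and 79.3% (78.1 to 80.6) in NE 1 to NE 4. These intervals cover counting error only. The intervals of EE 3 and EE 4 lie above those of the other 6 libraries, and those of EE 1 and EE 2, of the same group, do not reach them. Laboratory mouse strains carry different beta globin haplotypes, in which the pair of adult genes differs in sequence and name. The labels give no strain, and alleles were not analysed here.

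Beta over alpha globin was highest in EE 3 and EE 4, where alpha globin was lowest. It was 5.42, 6.89, 13.0 and 10.3 in EE 1 to EE 4, against 7.16, 5.34, 7.10 and 7.19 in NE 1 to NE 4. Hbb-bt over alpha globin was 0.972 to 1.42 in EE libraries and 0.898 to 1.49 in NE libraries, and its highest value was in NE 4. Hbb-bs over alpha globin was 4.45, 5.66, 11.6 and 9.12 in EE 1 to EE 4, and 4.44 to 6.08 in NE libraries.

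**Figure D3:**
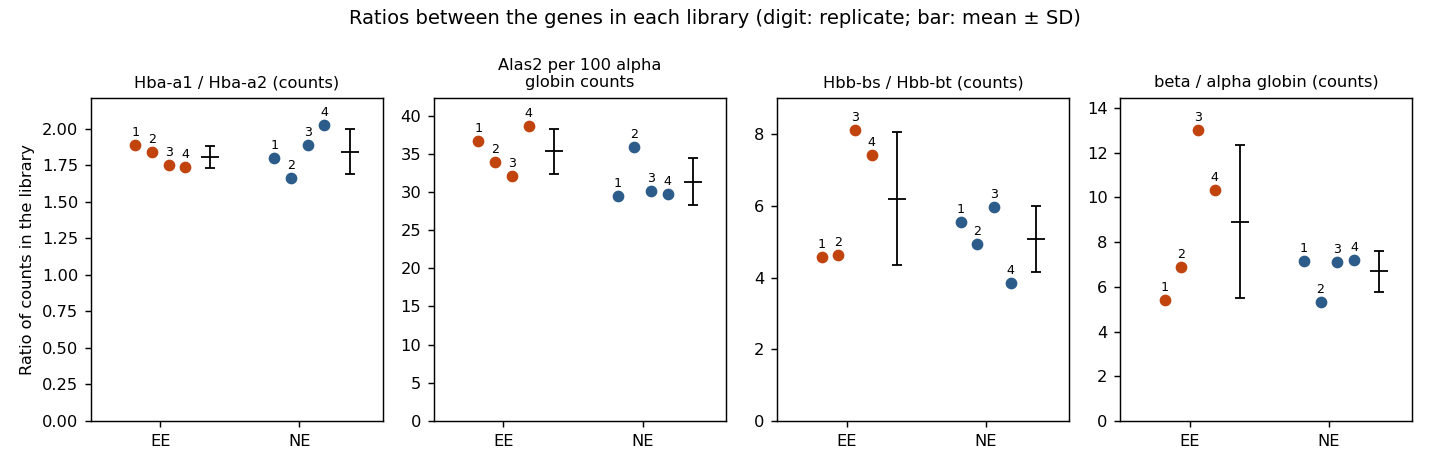
Ratios of counts between the genes in each of the 4 EE and 4 NE libraries, with the replicate number at each point and the mean ± SD beside each group; each axis starts at 0. Hba-a1 over Hba-a2 (1.66 to 2.03) and Alas2 per 100 alpha globin counts (29.4 to 38.7) vary little, while Hbb-bs over Hbb-bt and beta over alpha are highest in EE 3 and EE 4.

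The other heme synthesis genes, which act after Alas2 in red cells but also serve every other cell, did not share the lower level. With Alas1 there were 8 of them, all tested, and 0 passed in either direction. Their median log2 fold change was 0.01, 5 of 8 were positive, and their summed level was 430 to 463 CPM in EE libraries and 424 to 469 CPM in NE libraries. Fech, which inserts the iron into heme, was at 74.6 ± 10.3 CPM in EE libraries and 81.6 ± 5.56 CPM in NE libraries (SD, n = 4 each). Of 10 tested genes of mitochondrial iron and porphyrin transport 0 passed (median −0.09). Slc25a39, a mitochondrial carrier, was at 139 ± 5.68 CPM in EE and 152 ± 25.8 CPM in NE libraries.

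Other genes of red cells were mostly at low levels, and 0 passed. Of 17 genes of the red cell membrane and cytoskeleton 13 were in the table and 10 were tested. With 8 of 10 negative, a median log2 fold change of −0.38 and 0 that passed, 2 genes had EE values below all NE values, Gypc and Aqp1, against 2.02% of all genes. The median was −0.11 without EE 3 and −0.16 without EE 4. Of the 2 positive genes, the spectrin gene Sptb had a log2 fold change of 0.95 (standard error 0.28), with groups that overlapped. The water channel gene Aqp1, which endothelium and epithelium also use, was at 94.5, 83.1, 59.1 and 64.5 CPM in EE 1 to EE 4, against 118, 107, 110 and 97.0 CPM in NE 1 to NE 4. Epb41, the gene of protein 4.1, which many tissues use, was at 125 ± 21.9 CPM in EE and 118 ± 12.3 CPM in NE libraries.

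Slc4a1, the anion exchanger band 3 and a defining membrane gene of red cells, was picked after its values were seen. It was at 9.98, 1.15, 0.151 and 0.951 CPM in EE 1 to EE 4, against 1.11, 2.15, 6.10 and 7.62 CPM in NE 1 to NE 4. The groups overlap, the highest value was in EE 1, and the NE libraries did not follow the order they had for the alpha globins. The log2 fold change of Slc4a1 was −0.56 with a standard error of 0.93. Its lower values rest on few counts, so its order over the libraries is uncertain. Epb42 had no count in at least 1 library.

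Red cell enzymes and chaperones had 12 tested genes of 16, 0 that passed, 8 of 12 negative and a median of −0.10, with no groups apart. The most abundant were the carbonic anhydrases Car1 and Car2, which colon epithelium makes itself, at 2116 ± 1556 and 547 ± 215 CPM in EE libraries and 3492 ± 1581 and 733 ± 158 CPM in NE libraries. Of 9 erythroid transcription factors 5 were tested and 0 passed, and all 5 were positive (median 0.42). Lmo2 and Ldb1, which endothelium and other cells also express, were at 29.8 ± 13.2 and 81.6 ± 26.2 CPM in EE libraries and 25 ± 5.63 and 60.9 ± 12.2 CPM in NE libraries. Gata1 and Klf1, which define the lineage, were not analysed here. Of the embryonic and other globin genes 0 of 9 were in the table used here.

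**Figure D4:**
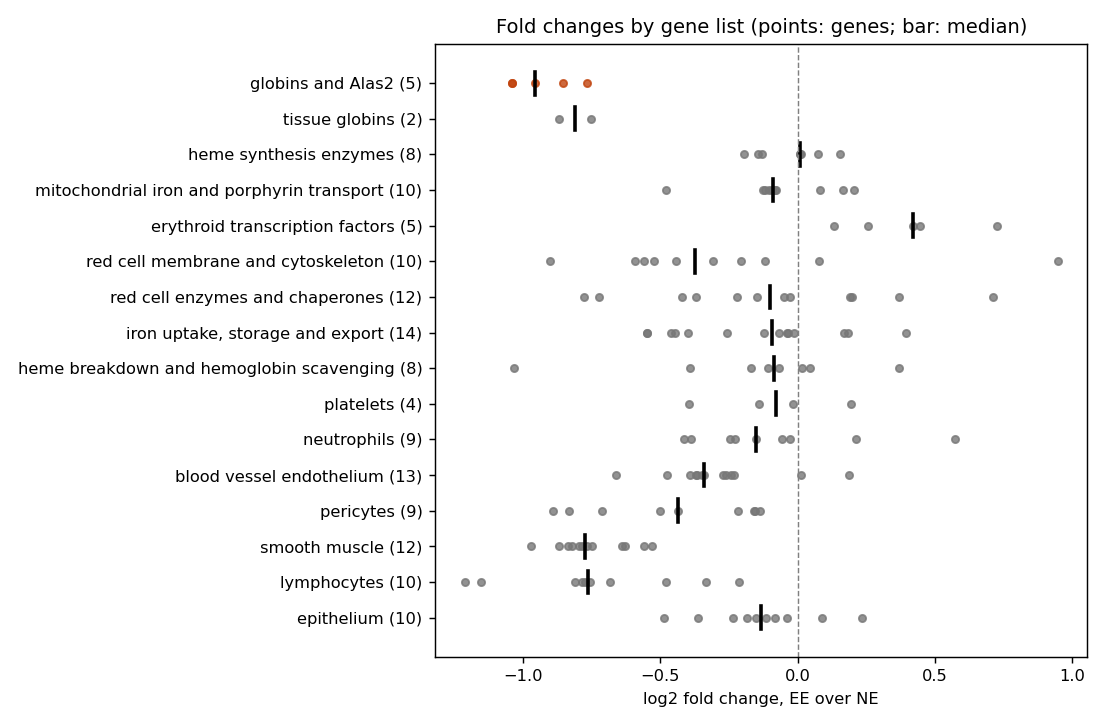
Log2 fold change, EE over NE, of each tested gene (points) and the median (bar) for Hba-a1, Hba-a2, Hbb-bs, Hbb-bt and Alas2 (top row) and for 15 gene lists, with the number of genes tested in brackets. The 5 genes lie between −1.04 and −0.77, the heme synthesis genes around 0 (median 0.01), and the medians of smooth muscle (−0.78) and lymphocytes (−0.77) are the lowest of the lists with more than 2 genes.

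Of 14 tested genes of iron uptake, storage and export 0 passed, with 11 negative, against 49.7% of all genes, and a median of −0.09 (−0.20 without EE 2). Tfrc, the transferrin receptor, was at 917 ± 304 CPM in EE and 697 ± 157 CPM in NE libraries, and Fth1, the ferritin heavy chain, at 905 ± 179 CPM in EE and 948 ± 92.6 CPM in NE libraries. Ftl1, the ferritin light chain, had all EE values below all NE values, against 2.02% of all genes. Ireb2, an iron regulatory protein, had them all above, against 2.87% of all genes. Heme breakdown and hemoglobin scavenging had 8 tested genes, 0 that passed and a median of −0.09. Blvrb, a biliverdin reductase, was at 63.9 ± 15.8 CPM in EE libraries and 49.7 ± 13.8 CPM in NE libraries. Lrp1, the receptor that clears heme bound to hemopexin, was at 200 ± 26.1 CPM in EE and 263 ± 12 CPM in NE libraries. All EE values of Lrp1 lay below all NE values, against 2.02% of all genes. Cygb and Ngb, globins made by tissue cells and not by red cells, were at 5.48 ± 2.81 and 1.58 ± 0.579 CPM in EE libraries and 9.92 ± 2.53 and 2.63 ± 0.629 CPM in NE libraries, with a median log2 fold change of −0.81 and 0 of 2 that passed.

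Lists of neutrophil, platelet and lymphocyte genes ran in other orders over the libraries than the globin sum. In bulk RNA, such cells in the blood and in the tissue cannot be told apart. Of 9 tested neutrophil genes 0 passed (median −0.15), and their summed level was 145, 671, 527 and 381 CPM in EE 1 to EE 4, against 198, 231, 352 and 941 CPM in NE 1 to NE 4. S100a8 and S100a9, the calprotectin subunits, were at 138 ± 82.1 and 195 ± 124 CPM in EE libraries and 119 ± 107 and 203 ± 199 CPM in NE libraries. NE 1, with the highest globin sum, had the lowest neutrophil sum of the NE libraries. Platelets had 4 tested genes of 13, 0 that passed and a median of −0.08, with summed levels of 29.0 to 43.3 CPM in EE and 33.8 to 47.9 CPM in NE libraries. Pf4, platelet factor 4, was at 8.06 ± 2.78 CPM in EE and 10.7 ± 3.03 CPM in NE libraries, and Itgb3, an integrin that other cells also use, at 22.4 ± 5.96 CPM in EE and 24.6 ± 5.07 CPM in NE libraries. Of 10 lymphocyte genes 0 passed and 10 were negative (median −0.77, and −0.46 without EE 4). Their summed levels were 10.9 to 60.5 CPM in EE and 38.8 to 70.1 CPM in NE libraries. In 2 of them, Cd8a and Cd22, EE values lay below all NE values, against 2.02% of all genes. Both were low, at 1.59 to 8.21 CPM for Cd8a and 0.793 to 5.30 CPM for Cd22 over all libraries. Among B cell genes Cd79b had 6.45 ± 5.86 and Ms4a1 5.88 ± 5.33 CPM in EE libraries, against 11.1 ± 4.21 CPM for Cd79b and 10.1 ± 4.75 CPM for Ms4a1 in NE libraries.

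Summed levels of the endothelial, pericyte and smooth muscle lists were lowest in EE 4. Of 13 endothelial genes 0 passed and 11 were negative (median −0.34, and −0.09 without EE 4). Their summed level was 235, 241, 258 and 118 CPM in EE 1 to EE 4, against 237, 244, 251 and 267 CPM in NE 1 to NE 4. Vwf and Pecam1 of endothelium were at 40.2 ± 8.87 and 30.5 ± 13.6 CPM in EE libraries and 47.6 ± 7.97 and 38.7 ± 1.33 CPM in NE libraries. In EE 1, EE 2 and EE 3 the summed endothelial level was 235 to 258 CPM, near that of NE libraries. Globin sums there were 540, 566 and 489 CPM, below the lowest NE value of 686 CPM. The part of vessels in the globin values was not tested.

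Pericyte genes were negative in 9 of 9 (median −0.43, and −0.17 without EE 4; 0 passed), with summed levels of 483, 529, 364 and 102 CPM in EE 1 to EE 4 and 523 to 717 CPM in NE libraries. Smooth muscle genes were negative in 12 of 12 (median −0.78, and −0.45 without EE 4; 0 passed), with 4528, 4821, 2540 and 737 CPM in EE 1 to EE 4 and 3853 to 6217 CPM in NE libraries. Rgs5 and Mcam of pericytes were at 216 ± 144 and 35.8 ± 14.1 CPM in EE and 400 ± 87.7 and 50.5 ± 3.84 CPM in NE libraries, and Myh11 and Tagln of smooth muscle at 613 ± 404 and 522 ± 320 CPM in EE and 1120 ± 203 and 813 ± 152 CPM in NE libraries. Epithelial genes had a median of −0.13 with 0 of 10 that passed, and Krt8 and Krt19 were at 1954 ± 529 and 2110 ± 449 CPM in EE and 2221 ± 497 and 2286 ± 308 CPM in NE libraries. The smooth muscle, pericyte and epithelial sums were lower in EE 3 and EE 4 than in EE 1 and EE 2, as were the alpha globins, and their part in the globin values was not tested.

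The genes whose levels ran most like the mean of the 5 genes were ranked over the 8 libraries by Pearson's r of log2 CPM, among 14306 genes with a mean of at least 1 CPM. Among the first 8 were Adap1, Naprt, Aqp1, Nrp2, Sfxn2, Man1b1 and Aatk, with r of 0.96 to 0.98. Adap1, an ArfGAP, was at 29.1, 29.5, 19.8 and 22.7 CPM in EE 1 to EE 4, against 47.7, 39.3, 39.4 and 35.8 CPM in NE 1 to NE 4. Naprt, an enzyme of NAD synthesis from nicotinic acid, was at 31.8 ± 6.38 CPM in EE and 49.0 ± 9.05 CPM in NE libraries. Nrp2 is a receptor of semaphorins and of VEGF-C, Sfxn2 is a mitochondrial carrier, Man1b1 a mannosidase of the endoplasmic reticulum and Aatk a kinase. Aqp1 was the only one of the 8 in a red cell or heme list, of 35 such genes ranked. The libraries are few and the groups lie apart, so r over the 8 libraries also holds the difference between the groups. With each gene centred within its group, these 8 genes still had r of 0.87 to 0.95, at ranks 57 to 337. On that ranking 0 of them were among the first 8, which included Crim1, Atp2b1, Cdhr2, Bmp3, Fam189a2, Dsc2 and Hadha (r of 0.97 to 0.99).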

How the data were processed

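Total RNA of distal colon was depleted of ribosomal RNA, turned into strand-preserving libraries and sequenced from a single end over 50 bases, per the labels' protocols. The submitters' processing notes name Novoalign 2.08.01, DESeq 1.14.0 and build mm10. Annotation, counting program and strand setting were not given in the sources used here. The authors deposited a read count per gene for each library, for 16130 genes, the smallest total over the 8 libraries being 12. They also deposited a log2 fold change and an adjusted p-value of their own test, per the file headers.

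Groups came from the sample titles. The test was that of edgeR 4.0.16 in R 4.3.3 (filterByExpr, TMM, robust quasi-likelihood test, Benjamini-Hochberg adjustment over all 14311 genes tested, threshold 0.05). CPM were scaled by TMM, with a prior count of 2 on the log2 scale. The biological coefficient of variation was 0.219. The tests were checked on simulated data. Standard errors were obtained as the absolute log2 fold change divided by the square root of F.

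The members and 16 gene lists were chosen with earlier results of these data known. Named genes were the members, in each list those past the threshold or, as none passed, the 2 with the highest mean CPM, and the 8 most like the members. Some genes that the rule names are not reported here. Genes named outside this rule were chosen after their values were seen. Lists are described by counts and medians with no set test. Alternatives were DESeq2 1.42.0, limma-voom (limma 3.58.1), RLE and upper-quartile scaling, no filter, a filter at 1 CPM in 4 libraries, the replicate number as a block and each library left out. Transcripts were taken from GENCODE M21 and promoters from RefSeq, which held all 5 members.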

Additional observations from a re-analysis of the deposited data

Results flagged for a closer look

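Among 66 sets of 4 libraries examined (the members, their ratios and the list medians in each group), 5 had 1 library far from the other 3, where chance flags about 5% of sets. Hbb-bs was at 374 CPM in EE 1, against 404 to 408 CPM in the other EE libraries, which lay very close to each other. In NE 2 beta over alpha globin was 5.34, against 7.10 to 7.19 in the other NE libraries. In the same library there were 35.9 counts of Alas2 per 100 of alpha globin, against 29.4 to 30.2, and 5.66 per 100 of all globin, against 3.61 to 3.72. The median of the endothelial genes, as log2 CPM minus each gene's mean over the 8 libraries, was −1.09 in EE 4, against 0.14 to 0.21 in the other EE libraries.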

How the results depend on the processing

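Every member had a negative log2 fold change under all 15 alternatives. The range was −1.27 to −0.85 for Hba-a1, −1.24 to −0.86 for Hba-a2, −0.90 to −0.62 for Hbb-bs, −1.10 to −0.83 for Hbb-bt and −1.10 to −0.64 for Alas2, and the ends of each range came from leaving out a library. The members were chosen for this direction, so it is no sign of stability. Counted after the data were seen, 4 or 5 members had groups that did not overlap when 1 library was left out: 5 without EE 1 or NE 4, where 3.75% and 6.23% of all genes did so, and 4 without each of the others, where 2.61% to 8.24% did, the most without EE 2. The count of genes called by edgeR was 0, with 0 to 1 when a library was left out (1 without EE 2) and 14 with DESeq2, which gave no adjusted p for 1119 genes. Of the gene lists, the platelet median reversed, to 0.14 without EE 3 (−0.12 to 0.14 over the libraries left out). The medians of red cell enzymes (0.02 without EE 4), neutrophils (0.34 without NE 4) and, with no filter, platelets (0.09) also became positive, within the spread between libraries. Many list medians came nearer 0 by over 1.5 times when 1 library was left out, and not all are given here. Without EE 4 they included endothelium (−0.09), pericytes (−0.17), smooth muscle (−0.45), lymphocytes (−0.46) and red cell membrane (−0.16). Erythroid transcription factors (0.24), mitochondrial transport (−0.02), heme breakdown (−0.01), epithelium (−0.09) and neutrophils (−0.07) did so there too. Red cell membrane (−0.11) and epithelium (−0.02) did so without EE 3, and mitochondrial transport (−0.01) and heme breakdown (−0.03) without NE 4. The heme synthesis median stayed between −0.06 and 0.03 and had either sign.

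With the replicate number as a block 0 genes were called and the members lay between −1.10 and −0.72. The labels tie same-numbered libraries only by the number, and any other link between them is not stated. The correlations of the deviations of same-numbered libraries were 0.25, 0.01, −0.18 and −0.04, and in 1 of 4 numbers the match was the best. With 74 to 145 counts of Alas2 in EE libraries, differences within that group are limited by depth.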
